A study of Homo sapiens with 12 samples.

Results

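MTF1 siRNA was compared with control siRNA in Caco-2 cells held at high zinc, on 6 of the 12 arrays of the study. The 6 were chosen by their sample titles: 3 arrays of cells given MTF1 siRNA (ON-TARGETplus, Thermo Scientific) and 3 of cells given a non-targeting negative control siRNA, all at 150 µM zinc. The other 6 arrays repeat the same pair of siRNAs at 3 µM zinc, called low zinc here, and share no array with the comparison. Caco-2 cells are an established epithelial line derived from a human colonic adenocarcinoma, grown in medium with fetal calf serum. All cells, controls included, were transfected with lipofectamine RNAiMAX, and biotin-labelled copies of their total RNA were hybridised to Illumina bead arrays, 1 sample per array. Nothing in the labels says that the 3 arrays of a group came from separate cultures, so p-values measure the spread between these arrays, which may be technical. The comparison asks which transcripts of zinc-loaded cells depend on the amount of MTF1.

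MTF1, metal regulatory transcription factor, is a zinc-finger protein that binds zinc when the free metal rises, enters the nucleus and attaches to metal response elements, short motifs upstream of its target genes. Its best-known targets are the metallothioneins, cysteine-rich proteins that hold zinc and copper, and SLC30A1, which carries zinc out of the cell. In the intestinal epithelium these proteins buffer absorbed zinc and pass it on.

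Metallothionein and zinc exporter promoters are shown because the genes that fell furthest came from these families, with MT1X beside them as a member that did not pass. Each is the 250 bases before a RefSeq transcription start on GRCh38.p14, 5′ to 3′ on the gene's own strand, at chr16:56651636-56651885 (+) for MT1B, chr16:56669564-56669813 (+) for MT1H, chr16:56682220-56682469 (+) for MT1X, chr1:211579162-211579411 (-) for SLC30A1 and chr1:26046119-26046368 (-) for SLC30A2. Capitals mark the cores TGCACNC and TGCGCNC of the metal response element on either strand.
MT1B: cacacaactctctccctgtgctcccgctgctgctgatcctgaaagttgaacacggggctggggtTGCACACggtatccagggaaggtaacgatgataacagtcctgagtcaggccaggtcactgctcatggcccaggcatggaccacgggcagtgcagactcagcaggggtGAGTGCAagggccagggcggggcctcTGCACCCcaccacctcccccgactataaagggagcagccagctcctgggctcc
MT1H: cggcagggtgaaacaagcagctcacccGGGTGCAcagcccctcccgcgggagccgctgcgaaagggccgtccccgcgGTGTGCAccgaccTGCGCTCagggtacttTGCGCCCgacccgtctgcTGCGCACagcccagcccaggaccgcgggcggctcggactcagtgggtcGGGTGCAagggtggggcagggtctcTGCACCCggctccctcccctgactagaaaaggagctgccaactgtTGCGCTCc
MT1X: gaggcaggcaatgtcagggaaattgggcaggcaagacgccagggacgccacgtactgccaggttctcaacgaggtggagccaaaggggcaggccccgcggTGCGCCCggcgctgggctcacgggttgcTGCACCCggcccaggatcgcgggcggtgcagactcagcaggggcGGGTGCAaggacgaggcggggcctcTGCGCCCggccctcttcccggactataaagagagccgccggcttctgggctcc
SLC30A1: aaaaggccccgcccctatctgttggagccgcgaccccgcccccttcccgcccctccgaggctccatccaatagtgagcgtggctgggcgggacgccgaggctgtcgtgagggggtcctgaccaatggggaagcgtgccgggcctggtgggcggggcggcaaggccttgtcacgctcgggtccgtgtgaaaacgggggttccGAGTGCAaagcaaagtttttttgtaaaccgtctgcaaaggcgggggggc
SLC30A2: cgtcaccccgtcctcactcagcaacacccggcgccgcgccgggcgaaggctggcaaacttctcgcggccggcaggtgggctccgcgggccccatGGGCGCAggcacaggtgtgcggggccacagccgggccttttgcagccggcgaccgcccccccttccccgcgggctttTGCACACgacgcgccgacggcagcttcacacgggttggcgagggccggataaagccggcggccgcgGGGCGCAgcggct
The stretches shown hold 3 cores in MT1B, 8 in MT1H, 4 in MT1X, 1 in SLC30A1 and 3 in SLC30A2. A core is common: it was in 37% of the 12410 windows of 300 bases (250 before and 50 after the start) of all named genes tested, so a match describes letters and not a bound site. It was in 36.7% of the 158 windows of named genes called lower and in 28.9% of the 90 windows of those called higher. Counted by gene, with a core in any window, the shares were 51.9% of 108 genes called lower and 37.3% of 59 called higher. Among all 8535 named genes tested that had a promoter the share was 46%. These shares were not tested.

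Of 14285 features tested, 271 differed between the siRNAs at high zinc (1.9% of all tested, adjusted p under 0.05). Here 175 were lower with MTF1 siRNA (1.23%) and 96 were higher (0.672%). Named genes made up 131 of the lower and 69 of the higher calls. The changes were small for most: 115 of the lower calls and 52 of the higher ones reached 1.5-fold, and 15 and 2 reached 2-fold. All 271 had 3 MTF1 siRNA arrays on the far side of the 3 control arrays, a separation that 26.3% of all features showed (12.9% with MTF1 siRNA higher and 13.4% lower). The median change over all features was 0.00 on the log2 scale, and 2951 had an unadjusted p under 0.05.

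**Figure D1:**
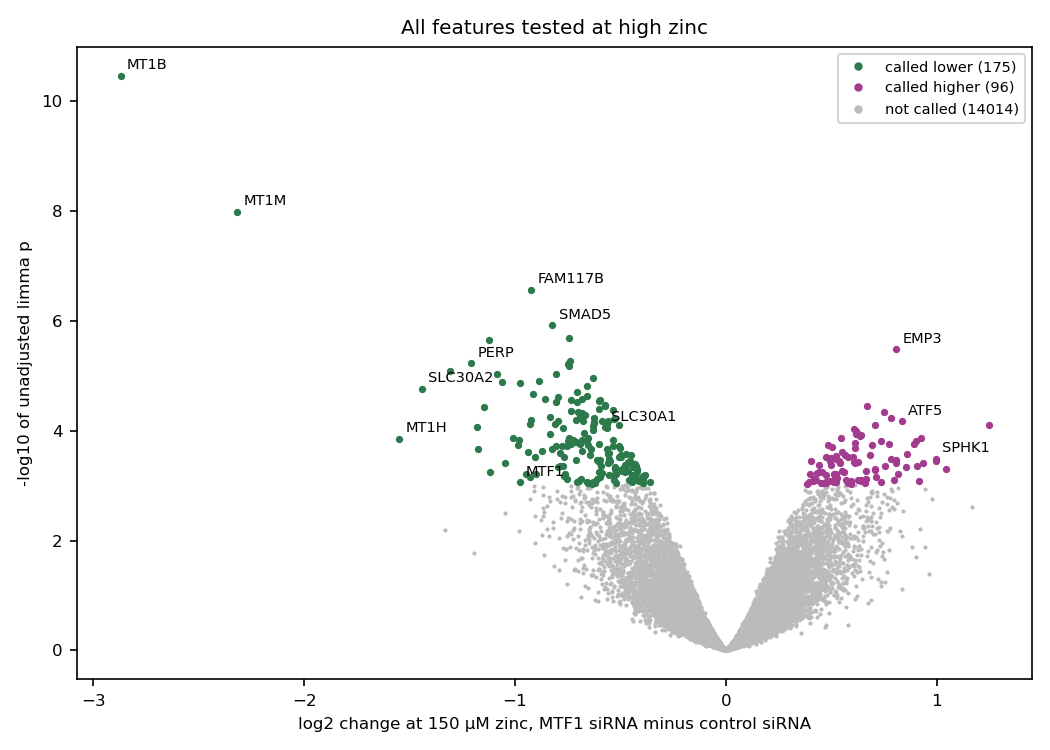
Each point is 1 of the 14285 features, with the log2 change at 150 µM zinc (MTF1 siRNA minus control siRNA) across and -log10 of the unadjusted limma p upward. Green marks the 175 lower calls, purple the 96 higher ones and grey the rest, and MT1B and MT1M stand furthest to the left.

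Of the 271, 24 met the filter on dim probes only through the high-zinc group in which they were high, 13 higher through the MTF1 siRNA arrays and 11 lower through the control arrays, so the filter favoured a difference in them. SPHK1, PHLDA2, USE1, SUN3, MBLAC2, PLEKHG5 and PSMB9, given below, are 7 of these, and their calls are a description.

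The number of calls was lower with any 1 array left out. It dropped to 21 without MTF1 siRNA high-zinc replicate 2, to 39 without replicate 1 and to 98 without replicate 3 of that group. Without control high-zinc replicate 1 it was 226, without control replicate 2 it was 70 and without control replicate 3 it was 45. Without MTF1 siRNA low-zinc replicate 2, which enters only through the shared spread, it was 173. Each such fit has fewer arrays, and the part of that in the drop was not tested. Of the 56 called genes given by name under the rule for named genes, out of 200 called named genes, 8 passed without any 1 array. The 8 include PLEKHG5, which met the filter on dim probes only through the control arrays where it was high. Centring arrays on the median in place of quantile normalization gave 184 calls, with 48.4% of them higher against 35.4% here. Control arrays at high zinc had 18969 to 19469 detected probes of 47323 and MTF1 siRNA arrays 18287 to 18671, while the raw mean intensity was 430 to 450 and 465 to 503. The part of these differences in the results was not tested.

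**Figure D2:**
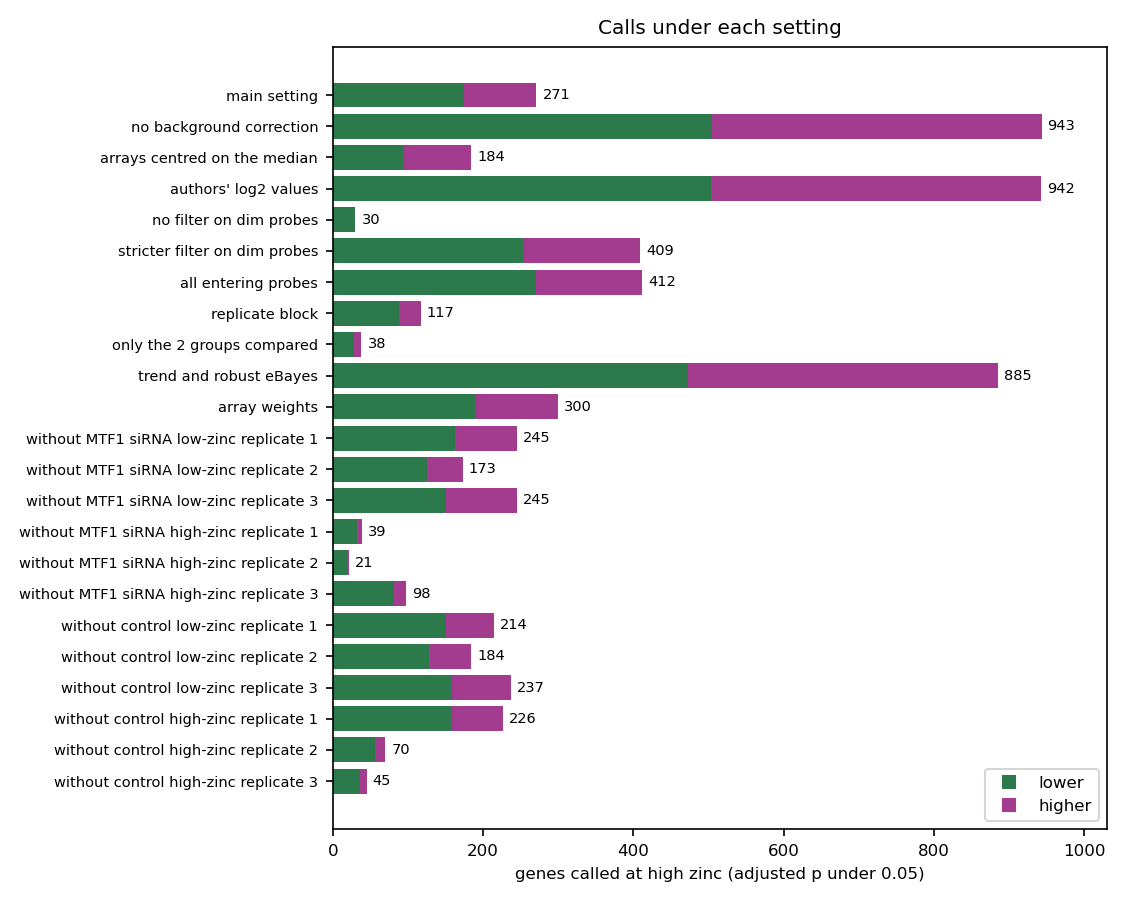
Bars give the number of features called at high zinc (across) under each setting (down), green for lower and purple for higher calls, with the total at the end. The count runs from 21 without MTF1 siRNA high-zinc replicate 2 to 943 without background correction, and is 271 as reported.

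MTF1 itself stood at 6.55, 6.75 and 6.80 on the control arrays and at 5.61, 6.25 and 5.31 on the MTF1 siRNA arrays (normalized log2 intensity, as are all levels below). The groups did not overlap, though MTF1 siRNA replicate 2 lay close to the controls. The change was -0.98 ± 0.22 (SE), a 1.97-fold lower level (limma, adjusted p = 0.0483). Leaving out 1 array at a time, the call survived the loss of replicate 2 at high zinc or replicate 1 at low zinc with MTF1 siRNA, but not of any of the other 10, where adjusted p reached 0.141. The change was -0.40 without background correction and in the authors' log2 values (adjusted p = 0.0135 in each). At low zinc the change was -0.71, and the difference between the zinc levels was -0.26 (95% interval -0.94 to 0.42, adjusted p = 0.707).

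Metallothioneins held the 3 largest falls among the calls. Of 12 in the list 8 were measured, 3 fell, none rose (0 higher and 5 lower at an unadjusted p under 0.05), and 7 had groups that did not overlap. The median change of the 8 was -1.10 against 0.00 over all features. Probes of these near-identical genes, clustered on chromosome 16, may cross-hybridise. Of all 14285 features, 1.23% were called lower and 0.672% higher, and 13.4% had groups apart with MTF1 siRNA lower. At an unadjusted p under 0.05 (limma), 1427 features were higher and 1524 lower. These shares stand beside the counts of every list below.

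MT1B gave 10.41, 10.72 and 10.91 on the control arrays and 7.77, 7.83 and 7.83 on the MTF1 siRNA arrays. The MTF1 siRNA arrays were nearly level with each other and far below every control array. It fell by 2.87 ± 0.12 (SE) on the log2 scale, a 7.31-fold lower level (limma, adjusted p = 4.88e-07). MT1M gave 11.23, 11.25 and 11.76 with control siRNA and 9.15, 9.15 and 8.99 with MTF1 siRNA. It was 4.98-fold lower, at -2.32 ± 0.16 (adjusted p = 7.33e-05). MT1B and MT1M kept their calls under every alternative setting run and with any 1 array left out.

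MT1H ran at 12.73, 12.53 and 13.05 with control siRNA and at 11.28, 11.19 and 11.20 with MTF1 siRNA, again without overlap. It was 2.93-fold lower, at -1.55 ± 0.28 (adjusted p = 0.024), and a second, dimmer probe moved by -1.34 ± 0.16. The call was lost without any of the 3 MTF1 siRNA high-zinc arrays or control high-zinc replicate 2 or 3, with adjusted p up to 0.0877, and with no filter on dim probes (0.0646).

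The other 5 metallothioneins did not pass. MT1G was at 13.29, 13.46 and 13.82 against 12.25, 12.17 and 12.17, a change of -1.33 ± 0.40 (adjusted p = 0.104). MT1F was at 13.44, 13.54 and 13.67 against 12.77, 12.64 and 12.64, a change of -0.87 ± 0.21 (adjusted p = 0.0596). In both genes every MTF1 siRNA array lay below every control array. MT1E differed by -0.50 ± 0.25 (adjusted p = 0.276) and MT1X by -0.34 ± 0.44 (0.713). MT2A, at 14.30, 14.13 and 14.63 against 14.14, 14.11 and 14.06, was the member whose groups overlapped, with a change of -0.25 ± 0.26 (0.624). The SE of each gene pools the spread within all 4 groups, low zinc included. Among low-zinc MTF1 siRNA arrays the SD of MT1G was 1.10, while at high zinc it was 0.27 (control) and 0.05 (MTF1 siRNA). For MT1X the SDs in the same order were 1.19, 0.16 and 0.09. The SEs of MT1G and MT1X thus carry spread from arrays outside the comparison. Bright probes were not treated apart, since the files carry no mark for saturated ones.

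High zinc still raised MT1B, MT1M and MT1X in cells with MTF1 siRNA (limma, adjusted p = 1.59e-08, 1.10e-08 and 1.82e-06). MT1B went from 4.72 ± 0.09 at low zinc to 7.81 ± 0.03 at high zinc with MTF1 siRNA, and from 4.85 ± 0.09 to 10.68 ± 0.26 with control siRNA (SD, n = 3). MT1M went from 4.55 ± 0.22 to 9.10 ± 0.10 with MTF1 siRNA and from 5.09 ± 0.20 to 11.41 ± 0.30 with control siRNA. MT1X reached 13.55 ± 0.09 from 7.24 ± 1.19 with MTF1 siRNA and 13.88 ± 0.16 from 8.79 ± 0.48 with control siRNA. These zinc comparisons each share 3 arrays with the siRNA comparison, so they are given side by side only.

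The siRNA effects on MT1B and MT1M were larger at high than at low zinc by the test of the difference itself. For MT1B the change was -0.13 at low zinc, and the difference was -2.74 (95% interval -3.12 to -2.36, adjusted p = 4.22e-05). For MT1M it was -0.54, and the difference was -1.78 (-2.28 to -1.27, adjusted p = 0.0381). MT1B was not above background on any low-zinc array and MT1M on 1 of 6, so a fall there had little room to show. The MT1M difference was lost without each of the 12 arrays in turn other than MTF1 siRNA low-zinc replicate 3 and control low-zinc replicate 3, and with median centring, no filter on dim probes or the replicate block, with adjusted p up to 0.179. For MT1H the changes were -1.55 at high and -1.49 at low zinc, with a difference of -0.06 (-0.92 to 0.81, adjusted p = 0.959). The rest of the family was above background on all low-zinc arrays and had the larger fitted fall there. At low zinc MT1G changed by -1.80, MT1X by -1.54, MT1F by -1.08, MT1E by -0.79 and MT2A by -0.78. None of these low-zinc changes or differences passed (limma). In each of MT1G, MT1X, MT1F, MT1E and MT2A, replicate 2 was the highest of the low-zinc MTF1 siRNA arrays. MT1G was at 8.30, 7.97 and 8.58 at low zinc with control siRNA and at 5.90, 7.75 and 5.80 with MTF1 siRNA. In MT1X, MT1E and MT2A the low-zinc groups overlapped. The list median at low zinc was -0.94, and a larger fitted fall at high zinc was not seen across the family. MT1B and MT1M were the dimmest members with control siRNA at high zinc, at means of 10.68 and 11.41. The others ran from 12.77 (MT1H) to 14.36 (MT2A). Whether brightness bears on the size of the falls was not tested.

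**Figure D3:**
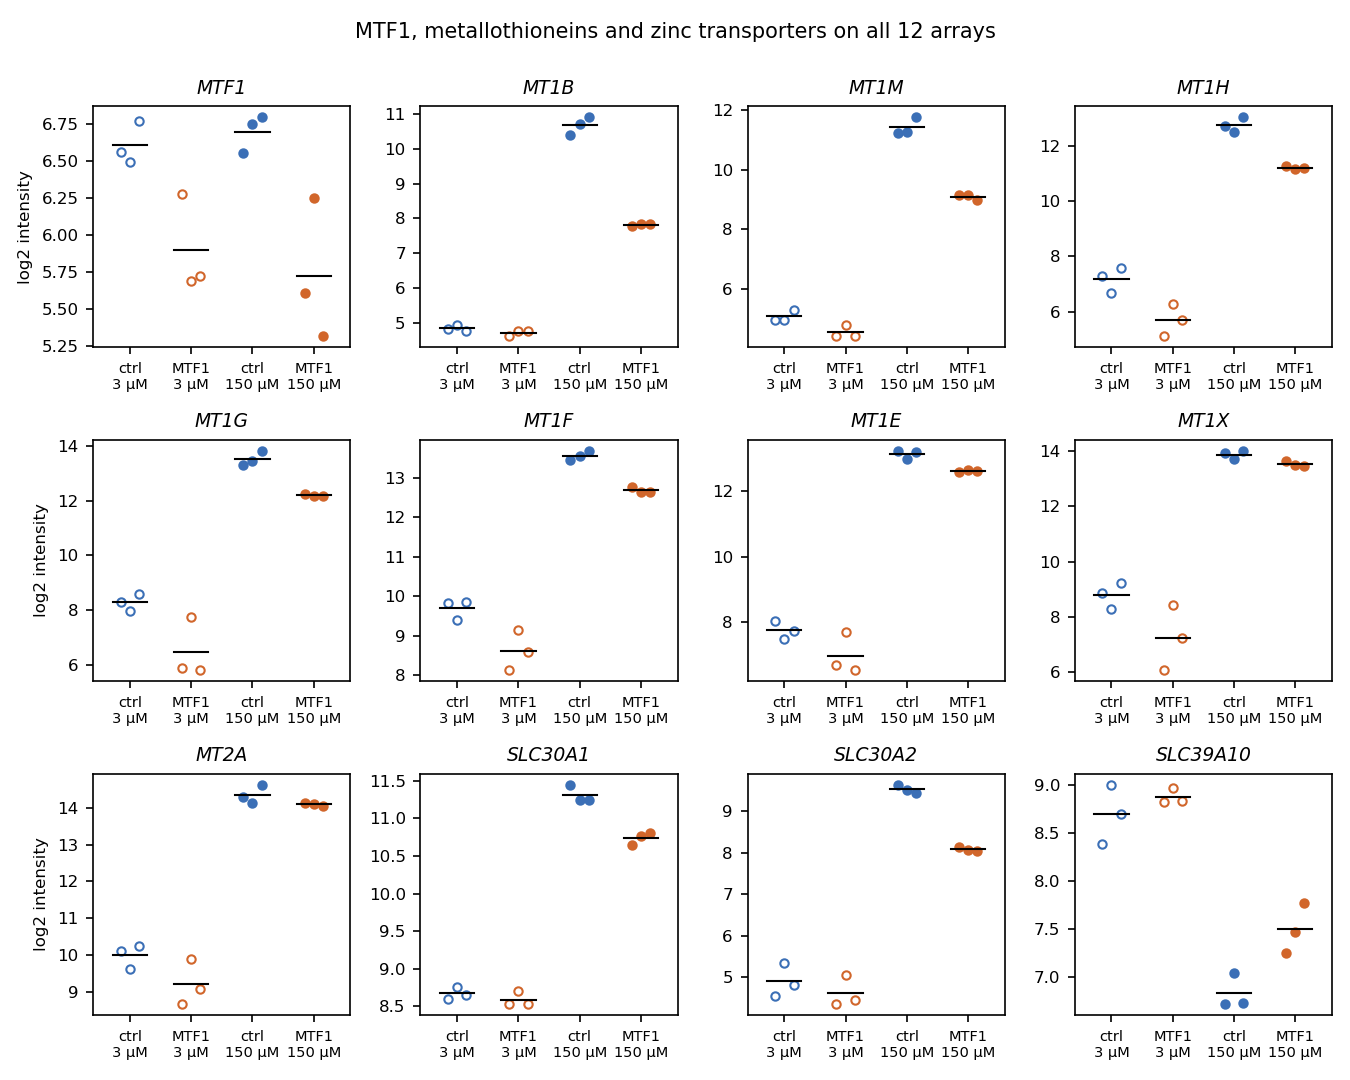
Normalized log2 intensity of MTF1, the 8 measured metallothioneins and 3 zinc transporters on all 12 arrays (points) with group means (lines), for control (blue) and MTF1 siRNA (orange) at 3 µM (open) and 150 µM zinc (filled). Axes differ between genes and do not start at 0. In MT1B and MT1M the filled orange points lie far below the filled blue ones, and in MT2A they overlap.

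Zinc exporters of the SLC30 family came next. SLC30A2 (ZnT2), which loads zinc into vesicles, gave 9.64, 9.51 and 9.43 with control siRNA and 8.15, 8.06 and 8.05 with MTF1 siRNA. SLC30A1 (ZnT1), the plasma membrane exporter, gave 11.45, 11.25 and 11.24 against 10.64, 10.77 and 10.80. Neither pair of groups overlapped. SLC30A2 was 2.72-fold lower, at -1.44 ± 0.21 (adjusted p = 0.0122), and SLC30A1 was 1.49-fold lower, at -0.57 ± 0.10 (adjusted p = 0.0188). A second, dimmer probe of each gave -1.46 and -0.74. The SLC30A1 call was lost without MTF1 siRNA high-zinc replicate 1 or 2 or control high-zinc replicate 3, and with median centring, no filter or only the 2 groups compared, with adjusted p up to 0.0782. The SLC30A2 call was lost without MTF1 siRNA high-zinc replicate 2 (0.0547).

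At low zinc SLC30A1 changed by -0.08 and SLC30A2 by -0.28. The differences between the zinc levels were -0.49 (95% interval -0.80 to -0.19, adjusted p = 0.175) and -1.17 (-1.80 to -0.53, adjusted p = 0.168), and did not pass. SLC30A2 was above background on 1 of 6 low-zinc arrays. Of 7 SLC30 genes measured these 2 fell and none rose (0 higher and 4 lower at an unadjusted p under 0.05), with a median of -0.31. SLC30A5, at -0.34 (adjusted p = 0.129), and SLC30A7, at -0.31 (0.136), had groups that did not overlap but did not pass.

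None of the 10 measured SLC39 zinc importers passed (limma), with 4 at an unadjusted p under 0.05 and a list median of 0.03. SLC39A10 (ZIP10), which brings zinc in at the plasma membrane, was at 6.72, 7.04 and 6.73 with control siRNA and at 7.25, 7.47 and 7.77 with MTF1 siRNA. All its MTF1 siRNA arrays were higher, by 0.66 ± 0.17 (adjusted p = 0.0685). SLC39A14 (ZIP14) moved by -0.40 (adjusted p = 0.0526) and SLC39A8 (ZIP8) by -0.44 (adjusted p = 0.102). Of 14 other genes reported as MTF1 targets none passed either, with 5 at an unadjusted p under 0.05 and a median of -0.13. The nearest was GCLC, the catalytic subunit of glutamate-cysteine ligase in glutathione synthesis, at -0.65 ± 0.15 (adjusted p = 0.0524).

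Outside zinc handling, the genes that fell most were spread over several functions. VAC14, scaffold of the complex that makes phosphatidylinositol 3,5-bisphosphate on endosomes, went from 6.86, 6.47 and 6.25 with control siRNA to 5.13, 5.54 and 5.00 with MTF1 siRNA. PERP, a tetraspan protein of desmosomes, went from 10.15, 10.51 and 10.28 to 9.27, 8.99 and 9.04. MTTP, which loads lipid onto apolipoprotein B, went from 5.84, 5.98 and 6.62 to 4.75, 4.97 and 5.18. Groups were apart in each of these genes, and MTTP was not above background on any MTF1 siRNA array. PERP was 2.31-fold lower (adjusted p = 0.00874). VAC14 fell by 1.31 ± 0.17 (0.00934) to a level above background on 1 of 3 MTF1 siRNA arrays, while MTTP was at least 1.91-fold lower (0.0188). For this bound each dim array was set at the lowest signal detected on it, or at its own value if that was higher.

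FAM117B gave 8.65, 8.82 and 8.78 with control siRNA and 7.85, 7.91 and 7.71 with MTF1 siRNA. It fell by 0.92 ± 0.09 (adjusted p = 0.00129), with a second probe at -0.97, and had the smallest adjusted p after MT1B and MT1M. SMAD5, a transducer of bone morphogenetic protein signals, gave 10.62, 10.65 and 10.53 against 9.90, 9.69 and 9.73. It fell by 0.82 ± 0.09 (adjusted p = 0.00428) and also at low zinc, by 0.70 (0.0168). Both genes, and PERP, kept their calls under all alternative settings run and without any 1 array.

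The rest of the 20 that fell most had varied roles. TUBE1, the epsilon-tubulin of centrioles, fell by 1.18 ± 0.22 (adjusted p = 0.0266), and its control arrays lay within 6.46 to 6.50 while its MTF1 siRNA arrays spread from 5.00 to 5.73, with 1 of 3 above background. SPIRE1, an actin nucleator, fell by 1.06 ± 0.15 (adjusted p = 0.0106). SEPTIN7, a core subunit of septin filaments, fell by 1.05 ± 0.21 (0.0342). CENPQ, a protein of the centromere, fell by 0.93 ± 0.20 (0.0447). In SEPTIN7 the change at low zinc was nearly as large, at -0.97 (difference -0.08, 95% interval -0.74 to 0.58), whereas CENPQ moved by -0.12 there (difference -0.81, -1.44 to -0.18, adjusted p = 0.233).

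The remaining genes of that group fell by 0.89 to 1.15. They were LONRF1 (-1.15), the SR-family splicing protein SRSF11 (-0.95), the heparan sulfate sulfotransferase HS2ST1 (-0.94, with 1 of 3 MTF1 siRNA arrays above background), the ectonucleotide hydrolase ENPP4 (-0.90), the methionine salvage enzyme ADI1 (-0.90), MBLAC2 and PLEKHG5. MBLAC2 and PLEKHG5 ended below background on all 3 MTF1 siRNA arrays, so that their folds are bounds, at least 1.62-fold and at least 1.24-fold lower.

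Among the named genes that rose, no fitted change exceeded 1.00 on the log2 scale. SPHK1, a kinase that makes sphingosine 1-phosphate, was at 4.75, 4.93 and 5.47 with control siRNA and at 6.01, 6.14 and 5.99 with MTF1 siRNA. The fitted change was 1.00 ± 0.20 (adjusted p = 0.0327), but it was above background on 1 of 3 control arrays and on all 3 with MTF1 siRNA, so the background bears on that size. EMP3, an epithelial membrane protein of the PMP22 family, was at 8.49, 8.35 and 8.37 against 9.26, 9.32 and 9.05. It rose 1.75-fold, at 0.81 ± 0.10 (adjusted p = 0.00664), and kept its call under all alternative settings run and without any 1 array. NPPB, the precursor of B-type natriuretic peptide, was at 8.30, 8.12 and 8.33 against 9.00, 8.94 and 9.06, a rise of 0.75 ± 0.12 (adjusted p = 0.0162).

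EMP3 was also the one gene called for a larger rise at high zinc. It changed by -0.24 at low zinc, where its arrays gave 7.91, 7.86 and 7.86 with control siRNA and 7.64, 7.54 and 7.74 with MTF1 siRNA. The difference was 1.04 (95% interval 0.74 to 1.35, adjusted p = 0.0381). That call was lost with median centring, no filter on dim probes or the replicate block, and without each of the 12 arrays in turn other than MTF1 siRNA low-zinc replicate 3 and high-zinc replicate 3, with adjusted p up to 0.179.

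Stress-response genes were among those that rose. ATF5, a transcription factor of the integrated and mitochondrial stress responses, was at 8.20, 8.25 and 8.32 with control siRNA and at 9.16, 9.12 and 9.00 with MTF1 siRNA, a rise of 0.83 ± 0.14 (adjusted p = 0.0177). SESN2, a leucine sensor that restrains mTORC1, was at 5.67, 5.83 and 5.20 against 6.40, 6.49 and 6.54, a rise of 0.91 ± 0.19 (adjusted p = 0.0359). ATF3 was at 10.26, 10.14 and 10.15 against 10.66, 10.58 and 10.51, a rise of 0.40 ± 0.08 (adjusted p = 0.0336). These were 3 of the 26 measured genes of the ATF4 stress response list, which had none called lower and a median of 0.07. In that list 7 were higher and 1 was lower at an unadjusted p under 0.05 (limma). The p53 target list had 2 of 16 called higher, SESN2 again and the cell cycle inhibitor CDKN1A, which rose by 0.61 ± 0.10 (adjusted p = 0.0194). Its median was 0.20, with 6 higher and 2 lower at an unadjusted p under 0.05 (limma).

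Other genes that rose had varied roles. POP7, a subunit of ribonuclease P and MRP, rose by 0.81 ± 0.16, and the proteasome lid subunit PSMD8 by 0.78 ± 0.16. DBP, an output factor of the circadian clock, rose by 0.89 ± 0.16 and CYP1A1, which oxidises aromatic hydrocarbons, by 0.85 ± 0.18. KLHL21, a cullin adaptor of mitosis, rose by 0.77 ± 0.14 and PHLDA2, an imprinted gene that limits placental growth and was above background on 2 of 3 control arrays, by 0.74 ± 0.13. UBTF, a factor of RNA polymerase I, rose by 0.80 ± 0.18 on its brighter probe while a dimmer probe gave -0.17 ± 0.22. The rest of the 20 were the stress granule protein ATXN2L (0.92), ZBTB3 (0.86), ZNF593 (0.82), RTL8B (0.81, with a second probe at 0.17 ± 0.17), the calcium-binding protein S100A3 (0.78), the immediate-early gene ARC (0.69), the SNARE protein USE1 (at least 1.59-fold) and SUN3 (at least 1.32-fold), the last pair from below background. Adjusted p-values of the 20 lay at or below 0.0481.

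**Figure D4:**
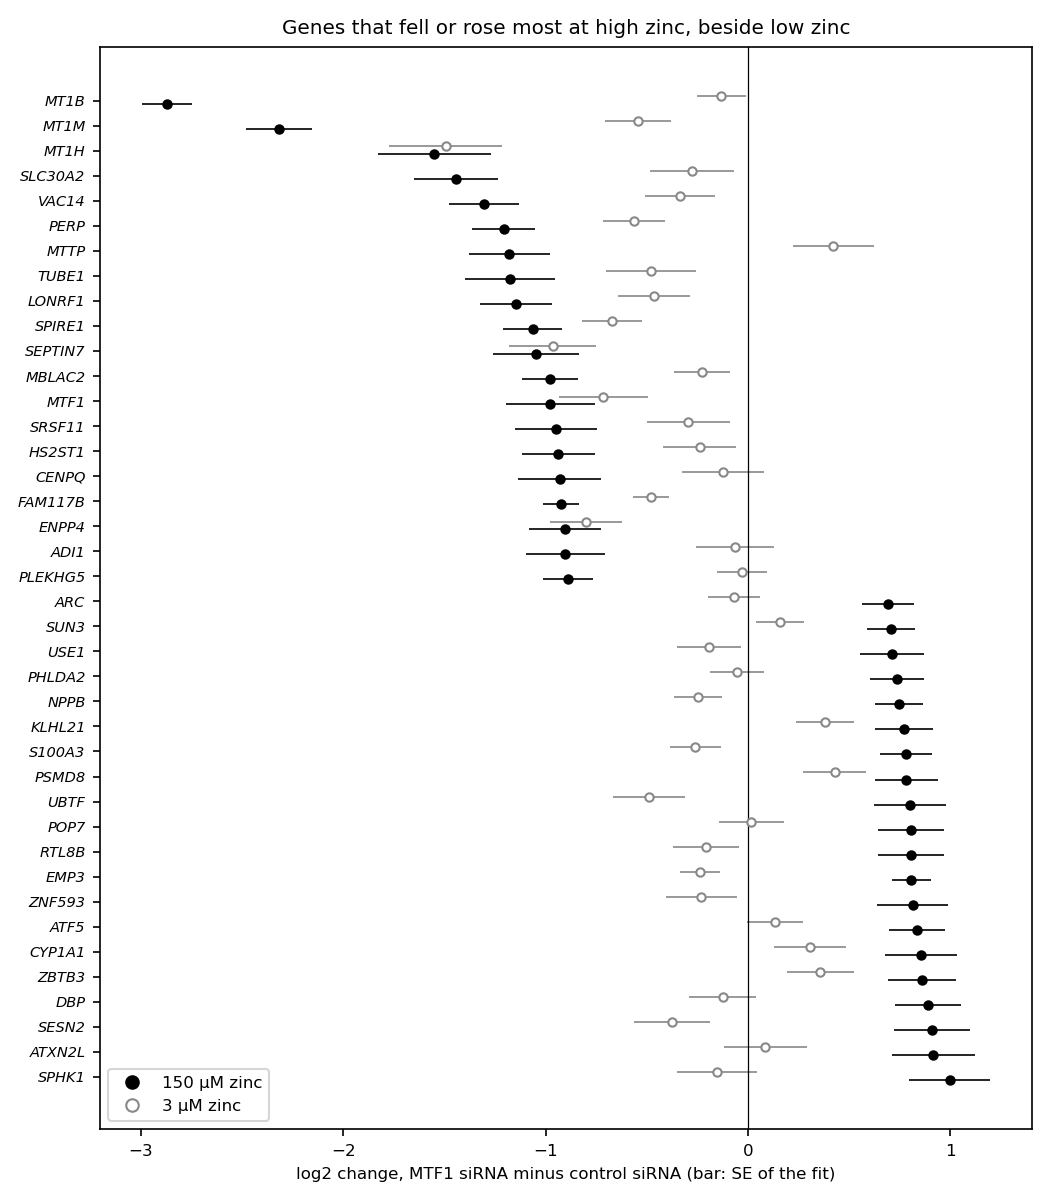
Log2 change (MTF1 siRNA minus control siRNA) with its SE for the 20 named genes that fell most and the 20 that rose most at 150 µM zinc (filled), beside the same at 3 µM zinc (open). The filled points were chosen for their size. MT1H, SEPTIN7 and ENPP4 have open points close to the filled ones, while the open points of genes that rose lie between -0.49 (UBTF) and 0.43 (PSMD8).

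Most features called lower at high zinc also had lower means with MTF1 siRNA at low zinc. Of the 175 features that fell at high zinc, 145 (82.9%) had a change of the same sign at low zinc, with a median there of -0.25. Of the 96 that rose, 52 (54.2%) did, with a median of 0.02. Over all features the share was 51.9%. The shares were not tested against each other. At low zinc 17 features passed (0.119% of all tested, with 2095 at an unadjusted p under 0.05), and 8 of them were among the 271 with the same direction.

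Of these 8, the named genes were SMAD5, UBE2Q1, CCNB2 and FOXN3, which fell, and KCTD20 and STMN3, which rose. CCNB2, a cyclin of mitotic entry, was at 11.24, 11.09 and 11.12 with control siRNA and at 10.60, 10.56 and 10.70 with MTF1 siRNA at high zinc. It fell by 0.53 ± 0.09 there (adjusted p = 0.0177) and by 0.55 at low zinc (0.0418), with a difference of 0.02 (95% interval -0.25 to 0.29).

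The difference between zinc levels passed for 3 features of 14285 (0.021%), MT1B, MT1M and EMP3, with 2278 at an unadjusted p under 0.05. The next by p-value were SSPOP and POLR3K. SSPOP was not above background at high zinc. POLR3K, a subunit of RNA polymerase III, was at 8.11, 8.17 and 7.95 with control siRNA and 8.69, 8.80 and 8.62 with MTF1 siRNA at high zinc. It rose by 0.62 ± 0.11 (adjusted p = 0.0221), and moved by -0.31 at low zinc (difference 0.94, 95% interval 0.60 to 1.28, adjusted p = 0.106).

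Genes of lipid transport and of cholesterol synthesis were among those that fell. In the enterocyte list MTTP and APOB fell, 2 of 12 measured genes, and none rose (0 higher and 5 lower at an unadjusted p under 0.05), with a median of -0.22. APOB, the structural protein of chylomicrons that MTTP loads, was at 8.68, 8.83 and 8.89 with control siRNA and at 8.09, 8.31 and 8.20 with MTF1 siRNA, a fall of 0.60 ± 0.09 (adjusted p = 0.0141). DPP4, a brush border peptidase, was at -0.87 ± 0.20 and did not pass (adjusted p = 0.0524). AFP, the fetal albumin relative, fell by 0.51 ± 0.09 from 12.01, 12.01 and 11.96 to 11.39, 11.52 and 11.54 (adjusted p = 0.0183). It was the member called of 17 plasma proteins, whose median was -0.17, with 0 higher and 7 lower at an unadjusted p under 0.05 (limma).

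In cholesterol synthesis 2 of 18 measured genes fell and none rose (1 higher and 9 lower at an unadjusted p under 0.05), with a median of -0.15. IDI1, isopentenyl diphosphate isomerase, was at 10.04, 10.44 and 10.47 against 9.44, 9.43 and 9.76, and fell by 0.77 ± 0.13 (adjusted p = 0.0194). DHCR7, the last enzyme of the Kandutsch-Russell route to cholesterol, fell by 0.50 ± 0.10 (0.0318), with a second probe at -0.45. At low zinc these genes stood at -0.18 and -0.29, and the differences did not pass (adjusted p = 0.198 and 0.471).

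Heat shock genes had 2 of 24 lower and none higher (2 each way at an unadjusted p under 0.05), with a median of 0.03. HSPA1A, the inducible HSP70, was at 11.95, 12.05 and 11.81 against 11.32, 11.62 and 11.39, and fell by 0.49 ± 0.10 (adjusted p = 0.039). HSPA1A has a near-identical neighbour, so its probe may also read that gene. HSPA4 fell by 0.80 ± 0.17 (adjusted p = 0.0365), but its dimmer probe gave 0.08 ± 0.12.

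Of 18 measured interferon response genes 2 passed, with 5 higher and 1 lower at an unadjusted p under 0.05 (limma). IFIT1 was higher by 0.64 ± 0.14 (adjusted p = 0.0483). PSMB9, an immunoproteasome subunit, was at least 1.42-fold lower, to below background (0.0267). PSMB9 met the filter on dim probes only through the control arrays at high zinc, where it was high, so its call is a description. IFIT1 also stood at 0.86 at low zinc (adjusted p = 0.0567). RPL23 was the called member of 27 cytosolic ribosomal proteins, at -0.60 ± 0.13 (0.0409), with 2 higher and 2 lower at an unadjusted p under 0.05 (limma). PFKP, a phosphofructokinase, was that of 25 hypoxia and glycolysis genes, at 0.46 ± 0.10 (0.0483). That list had a median of -0.04, with 3 higher and 4 lower at an unadjusted p under 0.05 (limma). The PFKP call was lost without each of the 12 arrays in turn, with adjusted p up to 0.158. No member passed in 28 of the 44 lists (limma). They included the 24 measured NRF2 targets, with 1 higher and 4 lower at an unadjusted p under 0.05 and a median of 0.07. The 24 immediate-early genes had 7 higher and 1 lower at that level, with a median of 0.15. The 24 proteasome genes had 4 higher and 0 lower, with a median of 0.04. ER folding (2 of 19 at an unadjusted p under 0.05) and apoptosis (3 of 13) were among the 28 lists too. ARC and PSMD8, given above among the genes that rose, were not members of the lists.

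**Figure D5:**
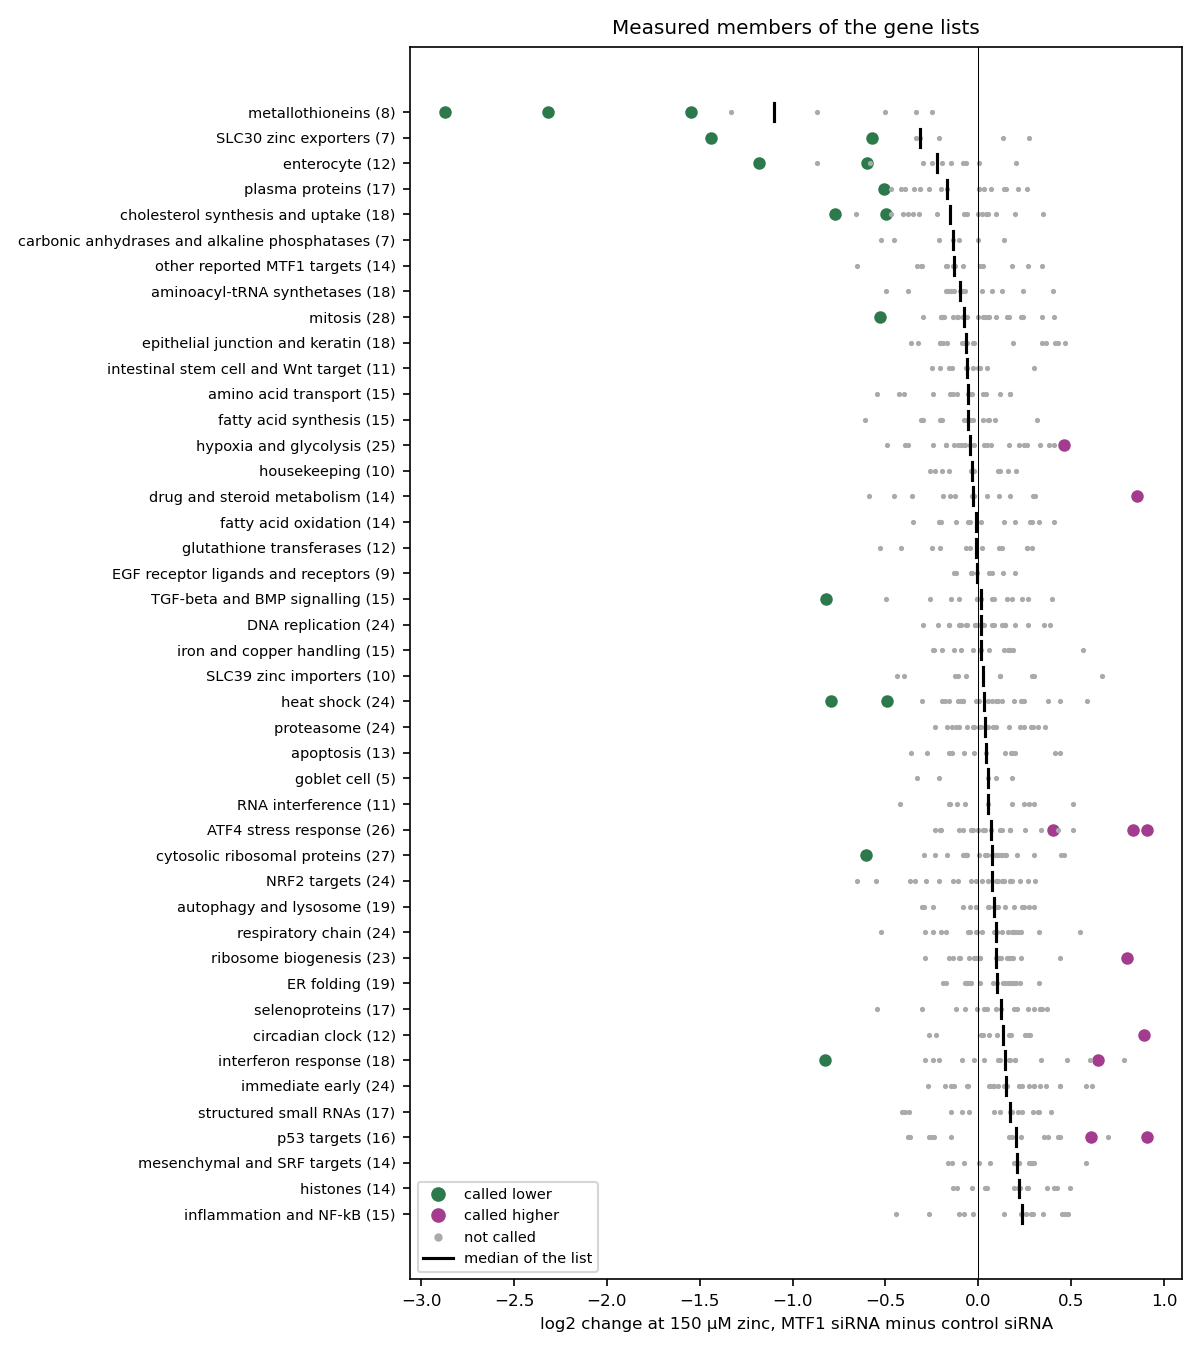
Log2 change at 150 µM zinc (MTF1 siRNA minus control siRNA) of each measured member of 44 gene lists (number measured in brackets), with green for lower calls, purple for higher calls, grey for the rest and a bar at the list median. The metallothionein median, -1.10, lies furthest from 0, followed by the SLC30 exporters at -0.31.

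Epithelial markers were present and showed no call. Of 11 fixed markers of intestinal epithelium 8 were above background on all 6 high-zinc arrays, EPCAM, CDH1, CDH17, CDX1, CDX2, KRT8, KRT18 and VIL1. None of the 8 passed (limma), though 6 had an unadjusted p under 0.05, with changes from -0.36 to 0.47. Their summed level was 90.0 to 90.7 on the control arrays and 89.4 to 89.8 on the MTF1 siRNA arrays. A summed level adds the log2 values of the markers tested, so it grows with their number and cannot be compared between cell types. Markers of other cells above background on all 6 arrays were COL1A1, COL1A2, COL3A1 and LUM of 7 for fibroblasts (summed level 31.0 to 31.4 and 30.2 to 30.7), CD14 and CD68 of 5 for immune cells (15.4 to 15.7 and 15.3 to 15.7), CDH5 of 4 for endothelium and TUBB3 of 3 for neurons. None of these passed, with TUBB3 alone at an unadjusted p under 0.05 (0.38). In bulk samples fewer cells of a type and less RNA per cell cannot be told apart.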

How the data were processed

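Total RNA of 12 Caco-2 samples, 3 in each of 4 groups, was measured. Per the file headers, the deposited table held non-normalized linear probe intensities. Beside each, the deposited file gives a detection p-value against negative controls. The authors' deposited series matrix held log2 values of the same arrays, used as an alternative. Of image software, bead summarization, slides and scan times the sources used here say nothing. The series design text speaks of a ZNF658 knockdown, whereas the title and all sample labels name MTF1, and the labels were followed.

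Intensities were corrected by normexp with the background from detection p-values, given an offset of 16, quantile normalized and brought to log2 with neqc (limma 3.58.1 under R 4.3.3). Among 47323 probes, 30113 had 1 symbol in the platform annotation, 8 several and 17202 none there. Symbols of 30074 were updated by gene identifier. The 17413 probes with detection p-values under 0.05 on every array of at least 1 group entered. The brightest probe stood for a gene, giving 14285 features, 10584 named and 3701 unnamed.

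limma (lmFit, eBayes) was fitted to all 12 arrays with 1 mean per group and 8 residual degrees of freedom, two-sided, with Benjamini-Hochberg adjustment over all features and 0.05 as the threshold. Intervals are 95% intervals of the fit. An exact permutation test of 3 against 3 arrays cannot go below p = 0.1. The number of arrays limits the precision. The labels do not say whether replicate numbers pair the samples, and the main fit did not pair them.

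Named were MTF1, the metallothioneins, SLC30A1 and SLC39A10, the 20 named genes that rose and the 20 that fell most among calls without overlap, called members of the 44 lists, and the 5 features of smallest p-value for the difference between zinc levels. Other genes given with values were picked after their values were seen. Comparison, lists and rules were chosen with earlier results of these data known. Lists are described by counts and medians, without a test. Probe choice, filters, normalization, the fit and each array in turn were varied.

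Promoters came from RefSeq on GRCh38.p14 and matched 49 of 63 named genes.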

Additional observations from a re-analysis of the deposited data

Results flagged for a closer look

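The siRNA effect differed between high and low zinc, by the test of that difference, in 3 features. MT1B differed by -2.74 on the log2 scale (limma, adjusted p = 4.22e-05), lower with MTF1 siRNA on 3 of 3 high-zinc arrays than on any control array, and it was not above background on any low-zinc array. MT1M differed by -1.78 (adjusted p = 0.0381), with 1 of 6 low-zinc arrays above background. EMP3 differed by 1.04 (adjusted p = 0.0381), above background on all 12 arrays, with MTF1 siRNA higher at high zinc on 3 of 3 arrays and lower at low zinc on 3 of 3. Over the alternatives run, the MT1B difference passed in each, and adjusted p of the other 2 reached 0.179.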

How the results depend on the processing

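The 271 calls at high zinc (96 higher, 175 lower) became 943 (439, 504) without background correction, 942 (439, 503) in the authors' log2 values, 885 (412, 473) with a mean-variance trend and robust eBayes, 409 (155, 254) with the stricter filter on dim probes, 412 (270 lower) with all entering probes, 184 (95 lower) with median centring, 38 (10, 28) with only the 2 groups compared, and 30 (1, 29) with no filter on dim probes. With 1 array left out they ran from 21 to 245 (2 to 94 higher, 19 to 162 lower). The count for the difference between zinc levels, 3, was 117 without background correction and in the authors' values, 101 with the trend, 1 with median centring or no filter, and 1 to 9 with 1 array left out. The low-zinc count, 17, was 152 without background correction and in the authors' values, 143 with the trend, 28 with the stricter filter, 7 with median centring, 2 with no filter, and 0 to 20 with 1 array left out (limma, 1434 to 2206 at an unadjusted p under 0.05). The change of MTF1 stayed at -0.98 but did not pass with no filter (adjusted p = 0.129) or only the 2 groups compared (0.0984), and ran from -1.24 to -0.77 with 1 array left out. The cause of these shifts was not tested, except that no filter raises the features tested to 37256 and 2 groups leave 6 arrays.

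Replicate numbers are shared between groups, and the labels do not say whether they pair the samples. Deviations of same-numbered arrays from their group means had r of -0.0974 to 0.0371 between the high-zinc groups. Over all 18 same-numbered pairs r ran from -0.0974 to 0.144. With 3 arrays per group, such correlations cannot settle whether the samples were paired. With the replicate block the calls were 117 (29 higher, 88 lower), 115 of them among the 271, with 1 call for the difference between zinc levels, 3 at low zinc, and -0.98 for MTF1 (adjusted p = 0.0825).

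Of the 271 calls, 243 were also called in the authors' values, 258 with the stricter filter, 249 with the trend, 166 with median centring and 35 with only the 2 groups compared. Of the 56 called genes given by name under the rule for named genes, 6 (MT1B, MT1M, EMP3, PERP, FAM117B and SMAD5) passed under every alternative run. Under all settings that kept every array 9 passed, and 8 passed without any 1 array. The 9 include MBLAC2 and the 8 include PLEKHG5, which met the filter on dim probes only through the control arrays where they were high. Their calls are a description. Of the 63 named genes 0 changed sign. Signal over background limits the dim genes: 236 of the 271 calls were above background on all 6 high-zinc arrays.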

Other observations

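Mitochondrial ribosomal proteins, which build the ribosome that translates mitochondrial messages, leaned upward with MTF1 siRNA at high zinc. The group was chosen after its values were seen and is given with no test. Of 76 measured, 55 had a positive change, 4 passed as higher and 0 as lower (limma, with 22 higher and 4 lower at an unadjusted p under 0.05), and the median was 0.17 against 0.00 over all features. MRPS24 was at 10.89, 10.75 and 10.86 with control siRNA and at 11.30, 11.48 and 11.35 with MTF1 siRNA, a rise of 0.54 ± 0.11 (limma, adjusted p = 0.0341). MRPL24 rose by 0.43 (0.0420), MRPS18A by 0.42 (0.0475) and MRPL11 by 0.39 (0.0483). At low zinc the median of the 76 was -0.06. Of all 14285 features 0.672% passed as higher at high zinc. At an unadjusted p under 0.05 (limma), 1427 of all features were higher there and 1524 lower.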
